A study of Homo sapiens with 4 samples.

Results

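The subunits of the mitochondrial respiratory chain that are encoded in the nucleus were examined in HCT116 cells after KIF26B siRNA. The members were the protein-coding genes whose symbols begin with NDUFA, NDUFB, NDUFC, NDUFS or NDUFV and a digit (complex I), are SDHA to SDHD (complex II), or begin with UQCR (complex III), COX4 to COX8 (complex IV) or ATP5 (ATP synthase, complex V). This rule used names and no measured value. It found 89 of the 58735 genes in the files: 39 of complex I, 4 of complex II, 9 of complex III, 17 of complex IV and 20 of complex V. A further 179 genes that match the names are not protein-coding, 173 of them processed pseudogenes, and they were left out. All members were assigned to a complex by symbol. NDUFA4 carries a complex I name although the protein is found in complex IV. CYC1 of complex III and NDUFAB1 of complex I do not match the names and are not members.

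HCT116 cells derive from a human colorectal carcinoma. Their RNA was sequenced in 4 libraries 48 h after transfection, 2 with control siRNA and 2 with siRNA against KIF26B, a gene of the kinesin family. The labels give no other treatment and no genetic change. Which of the siRNAs used in the study went into which library is not stated. The 2 KIF26B siRNA libraries may therefore hold the same siRNA or different ones. The study's methods speak of biological replicates for its experiments in general, and neither they nor the labels say that the libraries of a group came from separate cultures. The p-values measure only the spread between these 4 libraries, which may be technical. Levels are given as FPKM, read fragments divided by the exon length of the gene and the size of the library, in the order replicate 1 and replicate 2 of each group. Differences are on the scale log2(FPKM + 1), KIF26B siRNA minus control siRNA, which understates the change of genes with a low level.

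Complexes I to IV pass electrons from NADH and succinate to oxygen, and complexes I, III and IV pump protons across the inner mitochondrial membrane as they do so. ATP synthase uses the returning protons to make ATP. Complexes I, III, IV and V are built from subunits of both genomes, nuclear and mitochondrial, while all subunits of complex II are nuclear.

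The targeted gene was at the edge of detection. KIF26B (chr1:245318287-245872734, plus strand, GRCh37) was at 0.110 and 0.205 FPKM in the control libraries, from 31 and 73 reads. In the libraries labelled KIF26B siRNA it was at 0.140 and 0.0307 FPKM, from 43 and 8 reads. Replicate 1 of these lay between the controls, and only replicate 2 lay below both. The difference was -0.09 ± 0.09 (SE), with an adjusted p of 0.78 in limma without a filter on low values, so lower KIF26B RNA was not detectable as a group difference at this depth. At so low a level the pseudocount of 1 holds the difference near zero, and it was -0.52 ± 0.43 with a pseudocount of 0.1 and -1.13 ± 0.66 in limma-voom on recovered reads, neither of them past an unadjusted P of 0.05. Without KIF26B siRNA replicate 2 it was -0.02, and without KIF26B siRNA replicate 1 it was -0.17.

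The epithelial label was checked on 7 markers. The keratins KRT8, KRT18 and KRT19, the adhesion genes EPCAM and CDH1 and the intestinal regulator CDX2 were detected in every library, from 2.32 FPKM for CDX2 to 951 FPKM for KRT19. VIL1, the intestinal brush border villin, was nearly absent at 0.0080 to 0.0368 FPKM. Summed over the 7, the level was 1681 and 1696 FPKM in the controls and 1563 and 1590 FPKM after KIF26B siRNA. KRT8 (485 and 482 FPKM in the controls, 369 and 350 FPKM after KIF26B siRNA), KRT18 (245 and 243, then 175 and 168 FPKM) and CDH1 (24.1 and 23.9, then 17.7 and 20.2 FPKM) lay below both controls in both KIF26B siRNA libraries, and KRT19 lay above. Of 9 markers of blood, stromal, vascular and neural crest cells, CD3E was at 0 in all libraries and the highest was COL1A1, at 4.74 to 8.69 FPKM. These 9 summed to 8.42 and 8.09 FPKM in the controls and to 7.78 and 10.7 FPKM after KIF26B siRNA. Of them, 3 lay above both controls and 0 below. The smooth muscle actin gene ACTA2 was at 0.633 and 0.599 FPKM in the controls and at 2.25 and 1.34 FPKM after KIF26B siRNA, the neural crest gene SOX10 at 0.302 and 0.273, then 0.606 and 0.537 FPKM, and COL3A1 had at most 2 reads in any library. Reads of the mitochondrial genome made up 6.98% and 6.99% of recovered reads in the controls, and 9.80% and 7.87% after KIF26B siRNA. The part of these marker shifts or of mitochondrial reads in the differences given here was not tested. In such bulk libraries, fewer cells of a kind and less RNA per cell cannot be told apart.

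Promoter sequences were compared in addition to names, and no single motif was common to most of the members searched. NRF1 (nuclear respiratory factor 1), factors of the ETS family such as GABP, and YY1 are textbook regulators of respiratory genes. Letters of their core motifs were searched on both strands in the RefSeq promoters of GRCh38.p14, which run from 250 bases before to 50 bases after each start. The NRF1 letters were GCGCANGCG, the ETS letters CCGGAAG and the YY1 letters AAGATGGCG. The NRF1 letters are nearly their own reverse complement, so matches on the 2 strands can overlap. A promoter was found for 70 of the 89 members. The NRF1 letters were in 23 of these 70 (32.9%), against 17.5% of 9601 tested genes and 9.02% of all 27305 genes with a promoter. The ETS letters were in 21 (30.0%), against 23.1% and 12.2%, and the YY1 letters in 9 (12.9%), against 4.85% and 2.14%. At least 1 of these 3 motifs was in 43 members (61.4%), against 39.1% of tested genes. The share was 18 of 32 members in complex I, 3 of 3 in complex II, 6 of 7 in complex III, 6 of 14 in complex IV and 10 of 14 in complex V. A match is a description of the letters and not of a bound site.

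The 120 bases before the start are shown for 4 members that are described further on, with matched letters in capitals. NDUFS6 holds the NRF1 letters 46 bases before the start, COX8A holds the ETS letters on the reverse strand 18 bases before it, SDHD holds both, and NDUFS3 holds the ETS letters on each strand. Their log2 differences were -0.40 for NDUFS6, -0.37 for NDUFS3, 0.36 for COX8A and 0.24 for SDHD, and none of these passed the adjustment described further on.
SDHD, chr11:112086753-112086872, plus strand: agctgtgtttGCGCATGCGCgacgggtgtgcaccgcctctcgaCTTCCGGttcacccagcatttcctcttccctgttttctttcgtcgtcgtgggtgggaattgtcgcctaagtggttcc
NDUFS6, chr5:1801287-1801406, plus strand: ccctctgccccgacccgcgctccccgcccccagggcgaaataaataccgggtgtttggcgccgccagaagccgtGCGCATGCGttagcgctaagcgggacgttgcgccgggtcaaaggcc
COX8A, chr11:63974500-63974619, plus strand: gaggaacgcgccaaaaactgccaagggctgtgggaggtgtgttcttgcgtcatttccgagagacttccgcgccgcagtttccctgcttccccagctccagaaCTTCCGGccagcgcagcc
NDUFS3, chr11:47578954-47579073, plus strand: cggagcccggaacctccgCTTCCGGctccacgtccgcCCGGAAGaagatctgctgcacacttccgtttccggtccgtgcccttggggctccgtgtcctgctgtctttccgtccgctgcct

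Respiratory chain subunits were among the more abundant transcripts of these cells. Of the 89 members, 79 had a mean of at least 1 FPKM over the 4 libraries and were tested, and 10 were not. The median level of the 79 was 25.2 FPKM, against 5.62 FPKM for all 14523 genes tested, which places it at the 88.8th percentile. All members together made up 1.06% and 1.07% of summed FPKM in the controls and 0.939% in each KIF26B siRNA library. Their own sum was 3273.5 and 3355.9 FPKM in the controls and 3202.1 and 3207.6 FPKM after KIF26B siRNA. The sum over all genes was 309560 and 313860 FPKM in the controls and 341050 and 341780 FPKM after KIF26B siRNA. The lower share thus reflects mostly the larger sum over all genes. The tested members were read from 39 to 22875 reads per library, with a median of 1361.

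The complexes had different median levels. Complex IV had the highest median, 63.3 FPKM over 12 tested members, and complexes III and V followed with 30.7 FPKM (9 members) and 30.3 FPKM (18 members). Complex I (36 members) and complex II (4 members) had medians of 18.5 and 17.6 FPKM. This order is a description with no test. Complex I ran from 1.07 FPKM for NDUFA9 to 238 FPKM for NDUFS5. The 4 members of complex II were listed between 8.59 and 28.2 FPKM, all below the medians of complexes III, IV and V. The lowest of them, SDHC, had a recovered exon length of 14160 bases, against 1902 in the annotation used here. The range, median and place of complex II in this order are therefore uncertain.

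**Figure D1:**
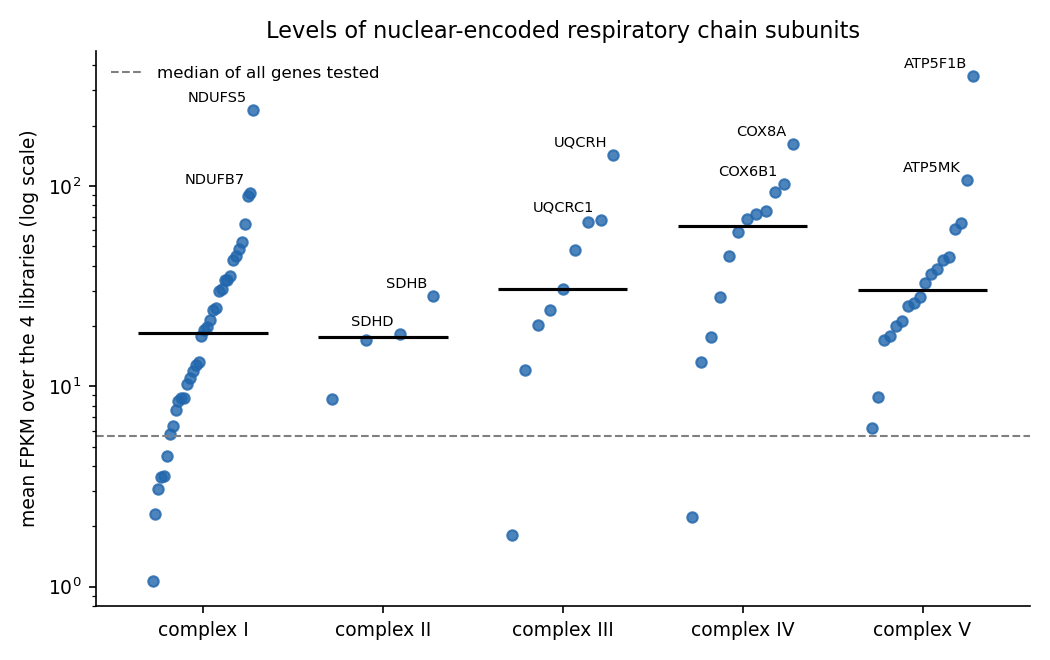
Mean FPKM over the 4 libraries (log scale) for each of the 79 tested members, 1 point per gene, grouped by complex, with the median of each complex as a black line and the 2 highest members labelled. The complex medians lie between 17.6 and 63.3 FPKM, all above the dashed line at 5.62 FPKM, the median of all genes tested.

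The most abundant member was ATP5F1B, the catalytic beta subunit of ATP synthase, with a mean of 353 FPKM. Next came NDUFS5, an accessory subunit of complex I, at 238 FPKM, and COX8A, a small subunit of complex IV, at 162 FPKM. The highest members of complex III were UQCRH, the hinge protein at cytochrome c1, at 143 FPKM, and UQCRC1, a core protein, at 67.7 FPKM. CYC1, outside the naming rule, was at 142 FPKM. In complex II, as listed, the iron-sulfur subunit SDHB was highest at 28.2 FPKM and the membrane anchor SDHD followed at 18.1 FPKM.

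Some members stood far below their partners in the same complex. The low level of NDUFA9 (1.07 FPKM) went with a recovered exon length of 10391 bases, against a median of 2475 bases over the tested members. Over the 86 members above 0, level and length had a Spearman correlation of -0.36 across genes, which are not independent and share the same 4 libraries. FPKM divides by the whole annotated exon length, so a gene with long, rarely used exons is listed low. The lengths recovered from the values equal the annotation used here for 22 of the 79 tested members, and comparisons of level between members carry that uncertainty.

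Many subunits of complex IV exist as isoforms of different tissues, and in HCT116 cells the ubiquitous copy dominated in each group. COX4I1 was at 78.8 and 81.0 FPKM in the controls and at 74.7 and 63.7 FPKM after KIF26B siRNA. COX4I2, the copy of lung and of low oxygen, was at 0 to 0.0675 FPKM. COX6A1 was at 24.9 to 33.8 FPKM, and its partner of heart and skeletal muscle, COX6A2, was listed at 0 in all 4 libraries. COX7A2 was at 55.4 to 62.4 FPKM and the muscle isoform COX7A1 at 1.57 to 2.68 FPKM.

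The copies known from testis were low as well. COX6B1 was at 99.0 to 105 FPKM and COX6B2 at 0.515 to 1.23 FPKM. COX7B was at 17.4 to 18.0 FPKM, while COX7B2 was listed at 0 in all 4 libraries. COX8A exceeded 134 FPKM in every library, and COX8C ranged from 0 to 0.935 FPKM. COX7B varied little, at 17.7 and 18.0 FPKM in the controls and at 17.4 and 17.5 FPKM after KIF26B siRNA.

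The same held for copies in other complexes. NDUFA4 was at 21.1 FPKM in both controls and at 23.9 and 29.6 FPKM after KIF26B siRNA, above both controls (log2 difference 0.32 ± 0.15, adjusted p = 0.38). Its paralog NDUFA4L2, a gene induced under low oxygen, was at 0.254 to 0.552 FPKM. UQCRHL, a retrocopy of UQCRH, was at 1.59 to 2.01 FPKM. UQCRH and UQCRHL are near-identical, and how the authors' counting shared reads between them is not given in the sources used here.

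The c ring of ATP synthase was the exception, since its 3 genes, which encode the same mature protein, were at similar levels. ATP5MC1 was at 32.4 and 33.7 FPKM in the controls and at 39.1 and 26.1 FPKM after KIF26B siRNA. ATP5MC2 was at 17.4 and 16.8 FPKM in the controls and at 25.2 and 20.5 FPKM after KIF26B siRNA. ATP5MC3 was at 28.5 and 28.8 FPKM in the controls and at 28.6 and 18.4 FPKM after KIF26B siRNA. ATP5MC2 was above both controls in both KIF26B siRNA libraries (log2 difference 0.39 ± 0.15, adjusted p = 0.31), whereas the other two had 1 KIF26B siRNA library below the controls and the other not.

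**Figure D2:**
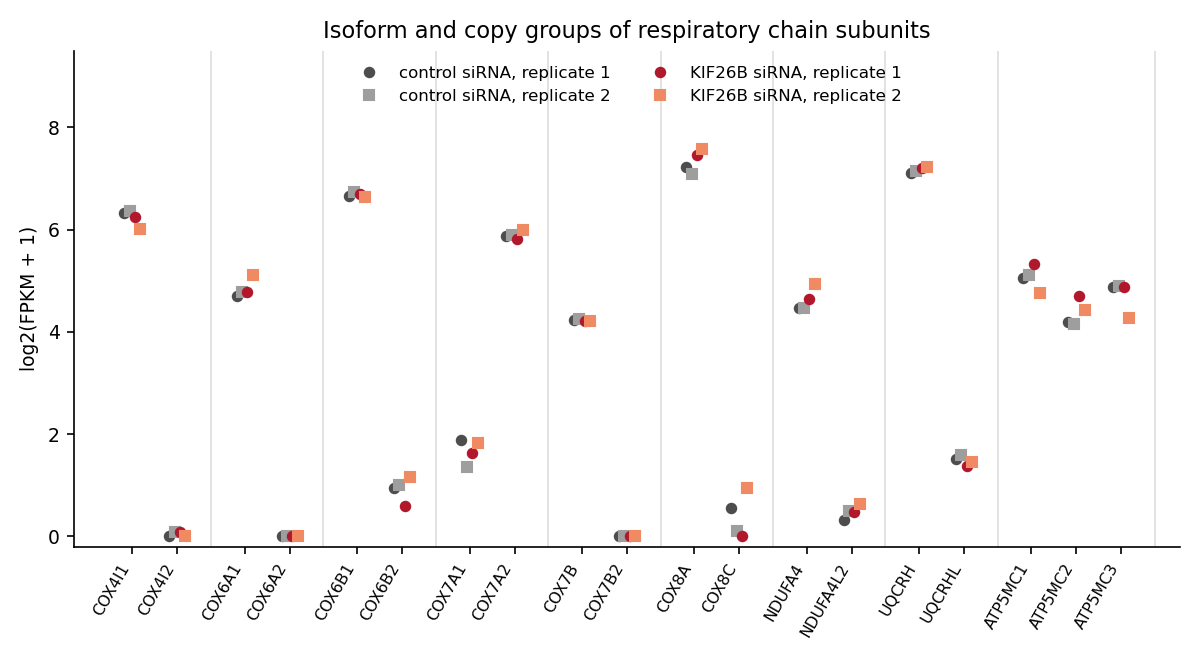
Level, as log2(FPKM + 1), of the genes of 9 isoform or copy groups in each of the 4 libraries, with grey lines between groups. In 8 groups a single gene carried the expression, and the 3 genes of the ATP synthase c ring lay between 16.8 and 39.1 FPKM.

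Of the 10 members that were not tested, COX6A2, COX7B2 and the readthrough NDUFC2-KCTD14 were at 0 in all libraries. The others were COX4I2, COX6B2, COX8C, NDUFA4L2, NDUFA7, the retrocopy ATP5MGL and the readthrough ATP5MF-PTCD1, none of which exceeded 1.23 FPKM in any library. NDUFA7 was close to the filter, at 0.901 to 1.06 FPKM.

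Few members differed between the groups. No gene of the 14523 passed an adjusted p below 0.05 in limma, where the smallest adjusted p was 0.242, and 0% of genes were called by that rule. In limma-voom on recovered reads the count was 0 as well, with a smallest adjusted p of 0.151. At an unadjusted P below 0.05, 2385 genes were called (16.4%), and 10 of the 79 tested members (12.7%). Of these members, 6 were lower after KIF26B siRNA (7.59%), against 8.68% of all genes tested. Another 4 were higher (5.06%), against 7.74% of all genes. None was past a log2 difference of 1 as well, against 1.42% of all genes. The share of members called was thus no higher than the share of all genes in either direction in this fit.

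Other settings gave other shares. With a variance trend, 11 members were lower (13.9%) and 6 higher (7.59%), against 9.08% and 7.87% of all genes. With no filter on low values, 12 of 86 members were lower (14.0%) and 7 higher (8.14%), against 6.31% and 6.33% of 34638 genes. With a pseudocount of 0.1, 2 were lower (2.53%) and 3 higher (3.80%), against 8.10% and 7.53%, and with the replicate number as a block 1 was lower (1.27%) and 2 were higher (2.53%), against 5.93% and 5.95%. The share of lower members was thus above that of all genes in some fits and below it in others.

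These counts also depended on which library was left out. Without control siRNA replicate 1, 0 members were lower and 1 was higher, against 1.67% and 1.93% of all genes. Without control siRNA replicate 2, again 0 were lower and 1 was higher, against 1.61% and 1.82%. Without KIF26B siRNA replicate 1, 18 were lower and 13 higher, against 23.7% and 22.9% of all genes, and without KIF26B siRNA replicate 2, 12 were lower and 10 higher, against 22.4% and 17.5%. In the fit without KIF26B siRNA replicate 1, 9 members passed an adjusted p below 0.05, against 17.3% of all genes. That fit takes its spread from the control pair alone and assumes that the remaining KIF26B siRNA library varies as the controls do. Among the members passing it were NDUFA2, NDUFB1, NDUFB8, NDUFC2, NDUFS3 and ATP5MC3, which were lower, and NDUFA4 and ATP5MG, which were higher.

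The 10 called members kept their direction under every setting tried, but most calls did not hold in all of them. Their groups did not overlap, so leaving out a library, the block or another pseudocount could not turn the sign. Besides the fits without a control, NDUFB3 lost its call without KIF26B siRNA replicate 1, COX8A without KIF26B siRNA replicate 2, and NDUFS6 without either. The replicate block ended the calls of SDHC, NDUFB1, NDUFB3, NDUFS6, NDUFB8, COX8A and NDUFS3, and among the fits of all 4 libraries it alone did so for SDHC and NDUFB1. A pseudocount of 0.1 ended the calls of NDUFB3, NDUFS6, NDUFB8, COX8A and NDUFS3, and scaling to nuclear genes those of NDUFB8, COX8A and NDUFS3. Over all fits, the log2 difference ranged from -0.77 to -0.42 for NDUFC2, from -0.65 to -0.36 for NDUFB1, from -0.69 to -0.30 for NDUFB8 and from -0.59 to -0.32 for NDUFB3. It ranged from -0.51 to -0.28 for NDUFS6, from -0.48 to -0.26 for NDUFS3, from 0.28 to 0.43 for COX8A, from 0.34 to 0.53 for SDHC and from 0.45 to 0.57 for ATP5MG.

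The sizes of the differences were small. The log2 difference was within 0.2 of zero for 47 of the 79 members (59.5%), against 46.8% of all genes, and below -0.5 for NDUFC2 and NDUFB1. The median log2 difference of the members was -0.04, beside -0.01 for all genes. By complex, the median was -0.09 for complex I, 0.19 for complex II, -0.14 for complex III, -0.01 for complex IV and -0.05 for complex V. The value of complex III hangs on single genes, with 5 negative and 4 positive members. Among the negative ones is the retrocopy UQCRHL at -0.14. The median was -0.14 for its 3 core and Rieske subunits and 0.09 for its 5 small subunits. With 2 libraries in each group, an exact permutation test of such a median could not give a p below 0.333, so none is given.

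Taken separately, the KIF26B siRNA libraries placed the complexes on the same side of the controls, except for complex V. Against the mean of the controls, which both libraries share, the medians of complex I were -0.05 in replicate 1 and -0.09 in replicate 2. Those of complex II were 0.21 and 0.16, of complex III -0.05 and -0.08, and of complex IV -0.01 and -0.03. The 5 small subunits of complex III alone had medians of 0.07 and -0.02, on opposite sides. Complex V was at 0.03 in replicate 1 and at -0.05 in replicate 2, and all genes were at -0.02 and -0.0046. Scaling to the nuclear genes, with transcripts of the mitochondrial genome left out, moved the median of all genes to -0.05, that of complex I to -0.14 and that of complex V to -0.09.

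**Figure D3:**
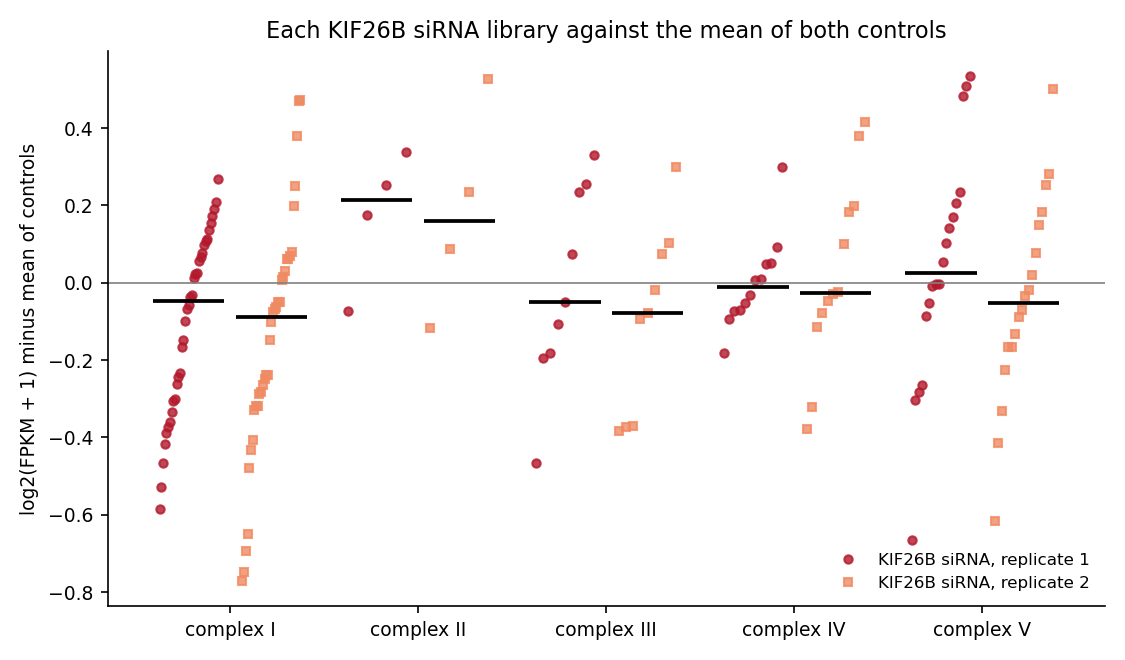
Difference of each KIF26B siRNA library from the mean of both controls, in log2(FPKM + 1), for 78 tested members by complex. Replicate 1 is shown as circles and replicate 2 as squares. Black lines are the medians of each complex and library, taken over all 79 tested members. The medians of complex II lie at 0.21 and 0.16 and those of the other complexes between -0.09 and 0.03.

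Groups that did not overlap were counted next. Both KIF26B siRNA libraries lay below both controls for 29 of the 79 members (36.7%), against 27.8% of all genes, and above both for 20 (25.3%), against 24.9%. In complex I, 15 of 36 members lay below and 6 above. Complex II had 1 of 4 below and 3 above, complex III 4 of 9 below and 3 above, complex IV 4 of 12 below and 3 above, and complex V 5 of 18 on each side. The rest, 30 members, overlapped.

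The KIF26B siRNA libraries differed from each other more than the controls did. Over the tested members, the median absolute log2 gap was 0.06 between the controls and 0.17 between the KIF26B siRNA libraries, and over all genes it was 0.07 and 0.28. The gap was wider in the KIF26B siRNA pair for 57 of the 79 members, against 79.4% of all genes. It was over 0.5 for 6 members, namely NDUFA2, NDUFA13, NDUFV3, ATP5F1B, ATP5MC1 and ATP5MC3. In the controls a gap over 0.5 was seen for 1 member, COX7A1, a gene at a low level. For 21 of the 79 members the KIF26B siRNA libraries lay on opposite sides of the control mean.

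Complex I receives electrons from NADH in a peripheral arm and pumps protons in a membrane arm. It held all 6 members that were lower at P below 0.05, which were 16.7% of its 36 tested members, against 8.68% of all genes. Whether complex I differed from the other complexes was not tested, since members are not replicates.

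The core subunits of complex I carry out its catalysis. Among those encoded in the nucleus, NDUFS3, a subunit of the peripheral arm (ENSG00000213619, chr11:47586888-47606114, plus strand, GRCh37), was lower at P below 0.05. It was at 15.1 and 15.0 FPKM in the controls and at 12.4 and 10.5 FPKM after KIF26B siRNA, below both controls in both libraries. Its log2 difference was -0.37 ± 0.13 (SE, adjusted p = 0.301), and its exons overlap PTPMT1 on the same strand and CELF1 on the other.

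NDUFV1, NDUFV2, NDUFS1, NDUFS7 and NDUFS8 did not have P below 0.05. NDUFV2, which carries an iron-sulfur cluster of the NADH module, was at 2.71 and 2.77 FPKM in the controls and at 1.59 and 2.16 FPKM after KIF26B siRNA, a log2 difference of -0.38 ± 0.15 (adjusted p = 0.318). NDUFV1, the flavin subunit, was at 28.8 and 29.9 FPKM in the controls and at 27.9 and 35.0 FPKM after KIF26B siRNA, so the groups overlapped. NDUFS1, NDUFS7 and NDUFS8 had log2 differences of -0.02, -0.16 and 0.09. NDUFV2 was named here after its values were seen.

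The accessory subunits of complex I surround the core and are needed for assembly and stability. Of 29 tested, 5 were lower at P below 0.05 (17.2%, against 8.68% of all genes) and 0 were higher (against 7.74%). The KIF26B siRNA libraries lay below both controls for 13 (44.8%, against 27.8% of all genes) and above both for 4 (13.8%, against 24.9%). The accessory subunits were not tested against other genes as a group. Their median log2 difference was -0.10. Of the 5, NDUFC2, NDUFB1, NDUFB3 and NDUFB8 belong to the membrane arm and NDUFS6, which binds zinc, belongs to the NADH module of the peripheral arm.

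NDUFC2 (chr11:77779343-77790908, minus strand) had the largest negative difference of all members. It was at 5.78 and 5.39 FPKM in the controls and at 3.94 and 2.86 FPKM after KIF26B siRNA, so both KIF26B siRNA libraries were lower, replicate 2 more so. The log2 difference was -0.59 ± 0.17 (SE, adjusted p = 0.269). Its exons overlap the readthrough NDUFC2-KCTD14, which was listed at 0, and THRSP on the other strand.

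NDUFB1 (chr14:92582466-92588261, minus strand) was at 10.0 and 10.9 FPKM in the controls and at 7.90 and 6.29 FPKM after KIF26B siRNA, a log2 difference of -0.50 ± 0.15 (SE, adjusted p = 0.274). NDUFB8 (chr10:102283497-102289757, minus strand) was at 8.92 and 9.14 FPKM in the controls and at 7.14 and 5.20 FPKM after KIF26B siRNA, a log2 difference of -0.50 ± 0.18 (SE, adjusted p = 0.301). In both genes replicate 2 of KIF26B siRNA was the lowest library, and no KIF26B siRNA library reached a control. Exons of NDUFB8 overlap a gene without a symbol, ENSG00000255339, on the same strand and HIF1AN on the other.

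NDUFB3 (chr2:201936156-201950473, plus strand) was at 37.5 and 41.3 FPKM in the controls and at 25.9 and 31.4 FPKM after KIF26B siRNA, a log2 difference of -0.45 ± 0.15 (SE, adjusted p = 0.289), and its exons overlap HYCC2 on the other strand. Here replicate 1 was the lowest library. NDUFS6 (chr5:1801521-1816162, plus strand) was at 35.4 and 41.8 FPKM in the controls and at 29.2 and 28.8 FPKM after KIF26B siRNA, a log2 difference of -0.40 ± 0.14 (SE, adjusted p = 0.292). The controls of NDUFS6 were further apart than its KIF26B siRNA libraries.

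Of the 29 tested accessory subunits, 16 had a log2 difference within 0.2 of zero (55.2%, against 46.8% of all genes). Among those with no P below 0.05, NDUFA6 and NDUFA12 (both -0.35), NDUFC1 (-0.30) and NDUFB11 (-0.29) lay below both controls in both libraries. NDUFA4 (0.32) and NDUFB5 (0.23) lay above both. These examples were named after their values were seen. The abundant subunit NDUFS5 was at 238 and 239 FPKM in the controls and at 249 and 226 FPKM after KIF26B siRNA, a log2 difference of -0.0045 ± 0.12. NDUFB7 was at 96.6 and 92.4 FPKM in the controls and at 101 and 79.3 FPKM after KIF26B siRNA. For both, 1 KIF26B siRNA library was above the controls and the other below.

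**Figure D4:**
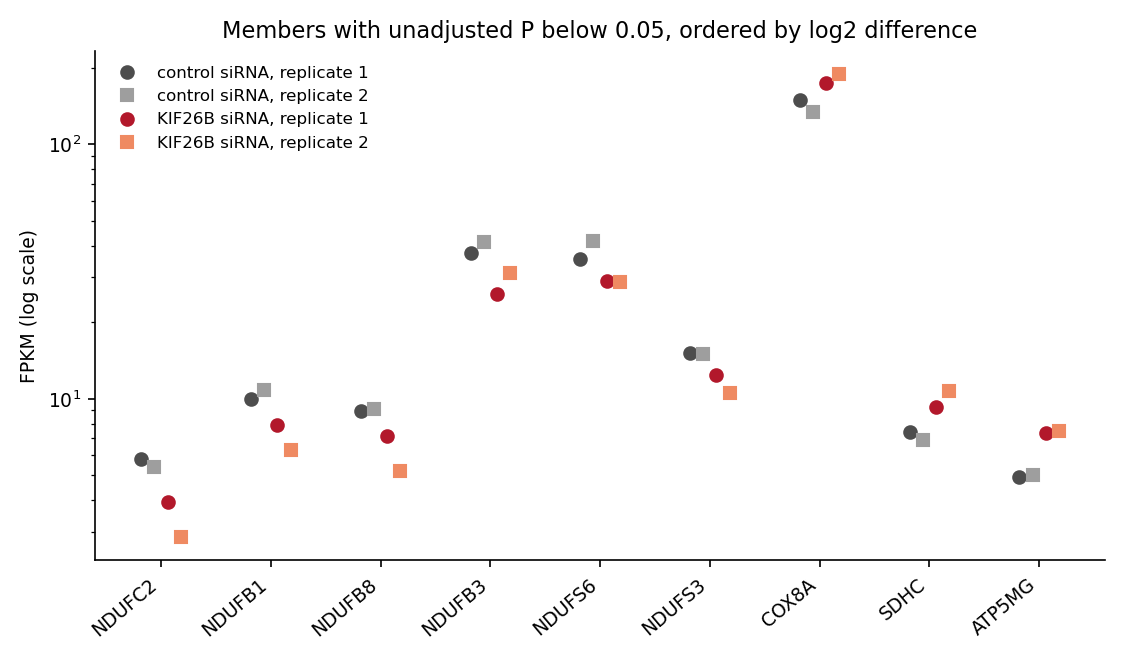
FPKM (log scale) in the 4 libraries for 9 members with an unadjusted P below 0.05, ordered by log2 difference from NDUFC2 (-0.59) to ATP5MG (0.49). For all 9, both KIF26B siRNA libraries (red) lie on the same side of both controls (grey), which their choice by P favours. Over all genes tested, 27.8% lay below both controls and 24.9% above.

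Complex II oxidises succinate and is also an enzyme of the tricarboxylic acid cycle. Its membrane anchors SDHC and SDHD were above both controls in both KIF26B siRNA libraries, as were 24.9% of all genes. SDHC (chr1:161284171-161332996, plus strand) was at 7.43 and 6.90 FPKM in the controls and at 9.30 and 10.7 FPKM after KIF26B siRNA, a log2 difference of 0.43 ± 0.13 (SE, adjusted p = 0.274). SDHD was at 16.4 and 16.7 FPKM in the controls and at 19.9 and 19.6 FPKM after KIF26B siRNA, a log2 difference of 0.24 ± 0.11 (SE, adjusted p = 0.359), and its exons overlap ENSG00000255292 on the same strand. The recovered exon length of SDHC was 14160 bases, against 1902 in the annotation used here, so its level cannot be set beside that of other members.

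The catalytic subunits of complex II differed less. SDHB was at 25.6 and 28.3 FPKM in the controls and at 30.5 and 28.6 FPKM after KIF26B siRNA, a log2 difference of 0.13 ± 0.12. SDHA, which carries the flavin, was at 17.5 and 17.7 FPKM in the controls and at 16.7 and 16.2 FPKM after KIF26B siRNA, a log2 difference of -0.10 ± 0.11. The groups did not overlap for any of the 4 subunits, although the differences of SDHA and SDHB were close to their SE. Over all genes tested, 27.8% lay below both controls and 24.9% above both.

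Complex III passes electrons from ubiquinol to cytochrome c. None of its 9 members had P below 0.05, against 16.4% of all genes. The largest positive difference was that of the core protein UQCRC2, at 27.8 and 27.7 FPKM in the controls and 32.8 and 34.4 FPKM after KIF26B siRNA (log2 difference 0.27 ± 0.11, adjusted p = 0.335). The largest negative one was that of the small subunit UQCR10, at 47.2 and 62.7 FPKM in the controls and 39.1 and 41.5 FPKM after KIF26B siRNA (log2 difference -0.42 ± 0.18, adjusted p = 0.348). The gap between the controls of UQCR10 was 0.40 on the log2 scale, nearly as large as the difference between the groups.

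The partners of these genes in complex III went both ways. UQCRC1, the other core protein, was at 71.0 and 70.9 FPKM in the controls and at 61.9 and 67.1 FPKM after KIF26B siRNA, a log2 difference of -0.14 ± 0.11. UQCRH was at 137 and 140 FPKM in the controls and at 146 and 149 FPKM after KIF26B siRNA, a log2 difference of 0.09 ± 0.11. UQCRC1 was thus below and UQCRC2 above both controls in both KIF26B siRNA libraries, as were 27.8% and 24.9% of all genes. Neither had P below 0.05 in limma.

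Complex IV reduces oxygen to water. Of its 12 tested members, COX8A alone had P below 0.05 (8.33%, against 16.4% of all genes). COX8A (chr11:63742092-63744015, plus strand) was at 149 and 134 FPKM in the controls and at 175 and 189 FPKM after KIF26B siRNA, a log2 difference of 0.36 ± 0.13 (SE, adjusted p = 0.301). COX5A, a subunit on the matrix side, had the largest negative difference, at 79.97 and 78.9 FPKM in the controls and 69.9 and 60.9 FPKM after KIF26B siRNA (log2 difference -0.28 ± 0.13, adjusted p = 0.369). COX6B1 was at 99.5 and 105 FPKM in the controls and at 103 and 99.0 FPKM after KIF26B siRNA, so the groups overlapped.

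ATP synthase consists of a catalytic F1 head, a ring of c subunits in the membrane, a peripheral stalk and small membrane subunits. All 5 subunits of the F1 head had negative log2 differences, with a median of -0.13, beside 7490 negative genes of all 14523 tested. Of the 5, 0 had P below 0.05, against 16.4% of all genes. The groups overlapped for ATP5F1C (-0.05) and ATP5F1D (-0.06). The beta subunit ATP5F1B (chr12:57031959-57039768, minus strand) was at 390 and 399 FPKM in the controls and at 248 and 376 FPKM after KIF26B siRNA. Replicate 1 was far below the controls and replicate 2 close to them. The log2 difference was -0.37 ± 0.24 (adjusted p = 0.489), and it was -0.67 without KIF26B siRNA replicate 2 and -0.07 without KIF26B siRNA replicate 1.

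ATP5MG, a small membrane subunit of ATP synthase (chr11:118272061-118303993, plus strand), was the only member of complex V with P below 0.05. This was 5.56% of the 18 tested members of complex V, against 16.4% of all genes. ATP5MG was at 4.93 and 5.02 FPKM in the controls and at 7.35 and 7.45 FPKM after KIF26B siRNA. Both pairs were tight and did not overlap, and the log2 difference was 0.49 ± 0.11 (SE, adjusted p = 0.243). Exons of ATP5MG overlap a gene without a symbol, ENSG00000285827, on the same strand.

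ATP5MK, a more abundant small membrane subunit, was at 97.2 and 102 FPKM in the controls and at 115 and 113 FPKM after KIF26B siRNA, a log2 difference of 0.19 ± 0.11. Of the 4 peripheral stalk subunits, 2 lay above both controls in both KIF26B siRNA libraries (against 24.9% of all genes), and the median log2 difference of the 4 was 0.10. The inhibitor ATP5IF1 was at 38.5 and 41.1 FPKM in the controls and at 32.1 and 42.0 FPKM after KIF26B siRNA, with the replicates on opposite sides of the controls. ATP5IF1 was named after its values were seen.

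Exon overlap touched many members. Of the 79 tested, 30 share exons with another protein-coding gene on either strand. Whether the authors counted reads by strand is not given in the sources used here, so reads of such genes and of their overlapping partners cannot be told apart. The 179 left-out genes with member-like symbols, mostly pseudogenes, summed to 58.5 and 55.7 FPKM in the controls and to 41.1 and 57.1 FPKM after KIF26B siRNA.

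The subunits encoded by the mitochondrial genome stood apart from their nuclear partners in replicate 1. The 7 ND subunits of complex I summed to 27057 and 27814 FPKM in the controls and to 39066 and 27714 FPKM after KIF26B siRNA. The 39 nuclear members of complex I summed to 1102 and 1126 FPKM in the controls and to 1097 and 1023 FPKM after KIF26B siRNA. In KIF26B siRNA replicate 1, the mitochondrial sums were 142% of the control mean for complex I, 142% for complex III, 138% for complex IV and 144% for complex V, while the nuclear sums were 98.5%, 97.6%, 102% and 89.0%. In replicate 2, the mitochondrial sums were 101%, 74.7%, 102% and 92.0%, and the nuclear sums 91.8%, 94.8%, 104% and 97.0%. The nuclear sum of complex II, which has no mitochondrial partner, was 112% and 110%. CYC1 of complex III and NDUFAB1 of complex I, outside the naming rule, are not in these sums. CYC1 was at 149 and 155 FPKM in the controls and at 128 and 136 FPKM after KIF26B siRNA. NDUFAB1 was at 52.1 and 54.1, then 57.1 and 57.1 FPKM.

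**Figure D5:**
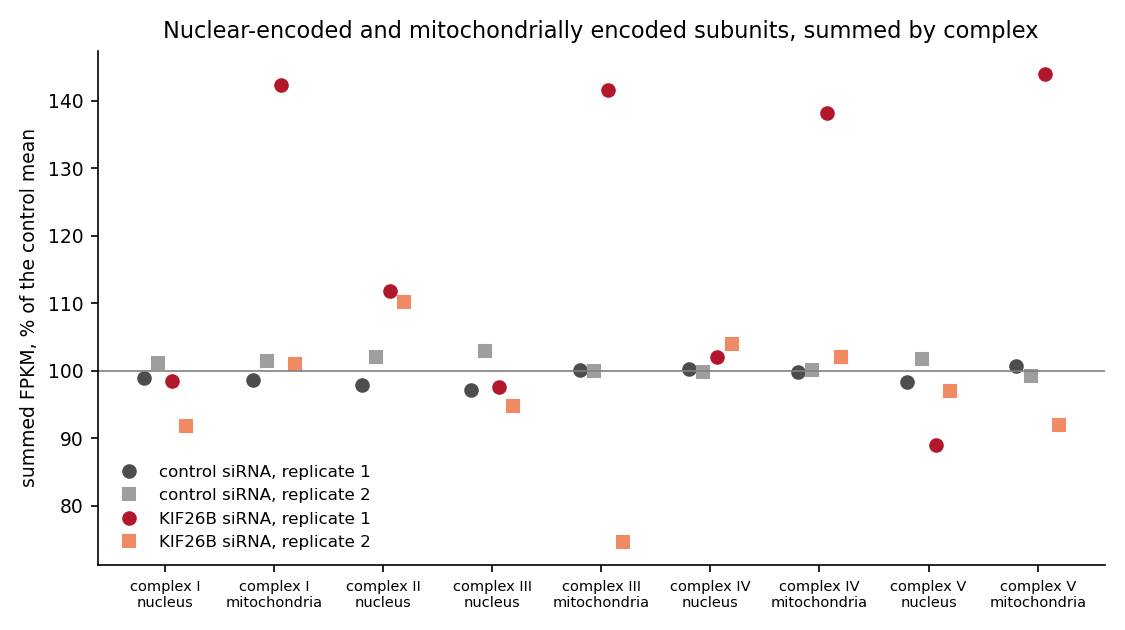
Summed FPKM of each complex as a percent of the control mean in each of the 4 libraries. Nuclear sums cover the members, without CYC1 and NDUFAB1, and mitochondrial sums cover the subunits encoded in mitochondria. The mitochondrial sums of KIF26B siRNA replicate 1 lie at 138% to 144%, and those of replicate 2 between 74.7% and 102%.

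All 13 mitochondrial subunits had a positive log2 difference, with a median of 0.26, but only MT-CO1, the catalytic subunit of complex IV, had P below 0.05 (7.69%, against 7.74% of all genes). MT-CO1 was at 8504 and 8355 FPKM in the controls and at 12047 and 11432 FPKM after KIF26B siRNA, a log2 difference of 0.48 (adjusted p = 0.248). For 8 of the 13 the groups overlapped. The libraries were made from poly(A) RNA.

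Genes that serve the same complexes were read from fixed lists. Of 20 assembly factors of complex I, NUBPL, which delivers iron-sulfur clusters, was higher at P below 0.05, at 1.09 and 1.21 FPKM in the controls and 1.91 and 1.85 FPKM after KIF26B siRNA. Of 9 assembly factors of complex III, UQCC1 was higher, at 5.15 and 5.24 FPKM in the controls and 10.4 and 9.29 FPKM after KIF26B siRNA, and so was UQCC6. Of 23 tested factors of complex IV, COX15, which makes heme a, was higher, at 11.2 and 10.6 FPKM in the controls and 16.9 and 19.9 FPKM after KIF26B siRNA. None of the 4 factors of complex II or the 3 tested factors of complex V had P below 0.05, and no assembly factor of any complex was lower by that rule. Over the 59 tested assembly factors, 4 were higher (6.78%, against 7.74% of all genes) and 0 lower (against 8.68%).

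The log2 difference was 0.81 for UQCC1 (adjusted p = 0.242), 0.70 for COX15 (adjusted p = 0.242), 0.42 for NUBPL (adjusted p = 0.258) and 0.38 for UQCC6 (adjusted p = 0.301). All 4 thus lay above both controls in both KIF26B siRNA libraries, and none passed the adjustment. The median log2 difference was 0.13 for the factors of complex III, 0.07 for those of complex IV and -0.0042 for those of complex I.

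Of 18 enzymes of the tricarboxylic acid cycle, 1 was lower and 1 higher at P below 0.05 (5.56% each, against 8.68% and 7.74% of all genes). IDH3B, a subunit of the NAD-dependent isocitrate dehydrogenase, was at 44.6 and 44.8 FPKM in the controls and at 30.1 and 36.4 FPKM after KIF26B siRNA. Citrate synthase (CS) was at 24.4 and 24.8 FPKM in the controls and at 32.4 and 30.0 FPKM after KIF26B siRNA. Of 19 carriers and subunits outside the naming rule, SLC25A4, the ADP/ATP carrier of heart and muscle, was the only one at P below 0.05 (5.26%), at 12.4 and 13.6 FPKM in the controls and 8.95 and 8.96 FPKM after KIF26B siRNA (log2 difference -0.49, adjusted p = 0.248).

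Of 17 tested regulators of respiratory genes and mitochondrial transcription, 1 was lower (5.88%) and 2 were higher (11.8%) at P below 0.05, against 8.68% and 7.74% of all genes. ESRRA, a nuclear receptor that acts on respiratory genes, was at 23.1 and 22.1 FPKM in the controls and at 30.6 and 29.8 FPKM after KIF26B siRNA. PPRC1, a coactivator of the PGC-1 family, was at 12.5 and 13.4 FPKM in the controls and at 19.7 and 17.6 FPKM after KIF26B siRNA. SLIRP, which stabilises mitochondrial mRNA, was at 17.6 and 20.3 FPKM in the controls and at 13.7 and 9.05 FPKM after KIF26B siRNA. Their adjusted p-values were 0.258, 0.253 and 0.287.

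Among factors whose motifs were searched, NRF1 had a log2 difference of -0.08, GABPA of 0.05 and YY1 of 0.04. Their adjusted p-values in limma were 0.734, 0.901 and 0.882. NRF1 lay below both controls in both KIF26B siRNA libraries, as did 27.8% of all genes, while the groups overlapped for GABPA and YY1. GABPB1, on the same list, had a log2 difference of -0.20 (adjusted p = 0.628), with overlapping groups. No other factor of the ETS family was read here. TFAM, which packages and transcribes mitochondrial DNA, was at 14.3 and 15.3 FPKM in the controls and at 12.6 and 9.73 FPKM after KIF26B siRNA (log2 difference -0.39, adjusted p = 0.350). PPARGC1B, the coactivator PGC-1 beta, had a log2 difference of 0.12, and PPARGC1A, the coactivator PGC-1 alpha, was listed at 0 in all 4 libraries.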

How the data were processed

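The 4 libraries were grouped by their labels as control siRNA or KIF26B siRNA. The authors purified poly(A) mRNA and made paired-end reads. The submitters' processing notes name HISAT2 2.0.5, featureCounts 1.5.0-p3 and hg38, while the study's methods name hg19, so the build of the deposited values is uncertain. The authors deposited FPKM values, a unit read from the values themselves. Symbols and gene coordinates are those of GENCODE v44lift37 (GRCh37) and matched 56513 of 58735 identifiers. Counting by strand and the annotation used are not given in the sources used here. Since FPKM is no input for the DESeq2 test of the study, limma 3.58.1 (R 4.3.3) was run on log2(FPKM + 1) without a block, over 14523 genes whose mean reached 1 FPKM, and p was adjusted by Benjamini-Hochberg. Whole reads were recovered from the FPKM steps for 99.99% of genes above 0, within 0.002 reads. The recovered totals were 19214000, 24313136, 21095790 and 18774813 reads, which limit precision by counting error at low levels. Same-numbered deviations from the group means correlated at -0.003, so the numbers were not taken as pairs.

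The genes named are KIF26B, the 2 highest members and the largest difference in each direction of every complex, the members with P below 0.05, the isoform groups, up to 3 genes with P below 0.05 from each other list, and 8 regulators. Other names were added once values were known, as stated or to complete a count, a range or a complex. A gene is counted in the totals and not reported here by itself, and it is not drawn in the plots of differences. The members and lists were chosen with earlier results of these data known. Alternatives were the replicate block, other pseudocounts, filters and scalings, a variance trend, limma-voom on recovered reads, loess corrections and leaving out each library. The fit was tested on simulated libraries, all with the spread of the control pair. The KIF26B siRNA pair was wider, so that test does not cover it. Tables and figures were made with pandas 2.3.3, numpy 2.4.6 and matplotlib 3.10.9 in Python 3.11.15.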

Additional observations from a re-analysis of the deposited data

How the results depend on the processing

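The 6 lower and 4 higher members at P below 0.05 became 1 and 2 with the replicate block, 12 and 7 with no filter on low values (2186 and 2192 of 34638 genes), 2 lower with a pseudocount of 0.1 (8.10% of all genes) and 11 lower, 13.9% of members, with the variance trend (9.08% of all genes). The replicate block kept NDUFC2 and ATP5MG among the called members, and 0 members were past an adjusted p of 0.05 (smallest over all genes 0.391). The pairing it assumes is not supported by the labels, and the cause of these shifts was not tested. Fits without 1 library called 0 to 18 members as lower and 1 to 13 as higher, 0 to 9 past an adjusted p of 0.05 (9 without KIF26B siRNA replicate 1), and 234 to 3435 lower and 265 to 3326 higher genes.

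The median log2 difference was -0.09 for all members, -0.14 for complex I, 0.14 for complex II, -0.06 for complex IV and -0.09 for complex V with scaling to nuclear genes. Complex I was at -0.06 with no filter and -0.10 after a loess on gene length, and complex IV was at 0.02, the other sign, after a loess on mean level. Without 1 library, all members ranged from -0.06 to 0.00, complex I from -0.09 to -0.05, complex II from 0.14 to 0.23, complex III from -0.14 to -0.05, complex IV from -0.03 to 0.00 and complex V from -0.08 to 0.03. KIF26B ranged from -0.17 to -0.02 there, and was at -0.52 with a pseudocount of 0.1 and -1.13 on recovered reads, below P of 0.05 in none. Counting NDUFA4 and NDUFA4L2 with complex IV, an alternative added after the data were seen, left its median at -0.01 and that of complex I at -0.10. Having 2 libraries per group and few reads for KIF26B limit these values.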
